A study of Mus musculus with 12 samples.

Results

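Mature miRNAs were compared between the livers of adult sons of obesogenic-fed mothers and of control-fed mothers, where the sons themselves ate only the control diet after weaning. The comparison took 6 of the 12 libraries of the study, chosen by the diets in their labels: 3 from group OC (mother on the obesogenic diet, son on the control diet) and 3 from group CC (both on the control diet). All mice were wild-type C57BL/6 males, killed fasted at postnatal day 84 (12 weeks). The 35 dams were fed either a standard chow or a diet rich in fat and sugar together with condensed milk. Each litter was cut to 6 pups on day 3, and pups were weaned on day 21. The other 6 libraries came from sons on the obesogenic diet, 3 after control mothers (CO) and 3 after obesogenic mothers (OO). The labels do not name the mother of each son, so p-values here measure the spread between these libraries, which may include sons of 1 litter. Titles of the OC and CC samples have different prefixes, while the column headers of all 12 libraries share 1 prefix. A batch behind the title prefixes cannot be told apart from maternal diet.

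A miRNA is a short RNA cut from a hairpin precursor and loaded into an Argonaute protein, which it guides to messenger RNAs that pair with its seed, bases 2 to 8 from the 5′ end. Each hairpin can release a product from its 5p arm and another from its 3p arm, and often 1 arm is kept in excess. In liver, miRNAs such as miR-122 and miR-192 are abundant in hepatocytes, and others, among them miR-33 and miR-103/107, are known for roles in cholesterol handling and insulin sensitivity. The levels below are in CPM, the read counts of each miRNA scaled to 1 fixed total in every library. Changes are differences of log2(CPM + 1), OC minus CC, with the standard error (SE) of limma's linear model over 12 libraries. For rows of few CPM this scale gives a smaller change than the plain ratio would. A miRNA passed when its p, adjusted by Benjamini-Hochberg over 386 rows, was under 0.05.

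The sequences below carry the values described in the following paragraphs, with the seed in capitals, 5′ to 3′. They were read from RefSeq on GRCm38.p6, and 322 of the 386 rows (83.4%) had an entry. The first set holds 3 of the 4 miRNAs with the smallest p, all lower in the OC libraries. let-7c-1-3p lies at chr16:77599717-77599738 on the plus strand, in an intron of the host transcript Mir99ahg. miR-1933-3p lies at chr11:21344600-21344621 on the minus strand, in an intron of Ugp2. miR-128-1-5p lies at chr1:128202369-128202389 on the plus strand, in an intron of R3hdm1.
let-7c-1-3p: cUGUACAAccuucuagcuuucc
miR-1933-3p: cCAGGACCaucagugugacuau
miR-128-1-5p: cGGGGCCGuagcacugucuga

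The second set holds the seed family with the smallest p, miR-326-3p (chr7:99552328-99552348, plus strand, in an intron of Arrb1) and miR-330-5p (chr7:19181486-19181507, plus strand, in an exon of Eml2). Their seeds are identical and the rest of the sequences differ.
miR-326-3p: cCUCUGGGcccuuccuccagu
miR-330-5p: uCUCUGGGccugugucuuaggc

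The third set holds both arms of the hairpin whose arm ratio had the smallest p, miR-335, in an intron of the imprinted gene Mest on the plus strand. The 5p arm is at chr6:30741314-30741336 and the 3p arm at chr6:30741354-30741375.
miR-335-5p: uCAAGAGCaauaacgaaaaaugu
miR-335-3p: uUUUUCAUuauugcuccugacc

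The fourth set holds close relatives that share a seed. miR-103-3p is made from introns of Pank2 (chr2:131288103-131288125, plus strand) and Pank3 (chr11:35782447-35782469, plus strand), and miR-107-3p from an intron of Pank1 (chr19:34820700-34820722, minus strand). Counted from the 5′ end, they differ by G22C. miR-192-5p (chr19:6264857-6264877, plus strand, in no other annotated gene) and miR-215-5p (chr1:185313610-185313630, plus strand) differ by C1A, A12U and C20A. let-7a-5p (chr13:48538239-48538260, minus strand) and let-7f-5p, which has loci at chr13:48537889-48537910 on the minus strand and chrX:151912353-151912374 on the plus strand, differ by G12A. The loci given are those found under each name in RefSeq and may not be all that exist. Reads of relatives this close may be counted for one another, and the rule the authors used for such reads is not stated in the labels.
miR-103-3p: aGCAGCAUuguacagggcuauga
miR-107-3p: aGCAGCAUuguacagggcuauca
miR-192-5p: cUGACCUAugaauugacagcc
miR-215-5p: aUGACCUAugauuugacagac
let-7a-5p: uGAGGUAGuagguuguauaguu
let-7f-5p: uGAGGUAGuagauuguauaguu

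No miRNA passed in OC against CC. With limma, 0 of 386 rows (0%) had an adjusted p under 0.05, and the smallest adjusted p was 0.9999. At an unadjusted p under 0.05 there were 4 rows (1.04%), where 19.3 would be expected at that threshold with no difference in any row. limma-voom on the reads implied by the CPM steps also passed 0 rows and had 6 at an unadjusted p under 0.05. The SE and p of the main model pool the spread of all 4 groups, not that of OC and CC alone. The median within-group SD of log2(CPM + 1) was 0.15 in CC, 0.17 in OC, 0.26 in CO and 0.19 in OO. With limma on the 6 libraries alone, 0 rows passed and 12 had an unadjusted p under 0.05. The estimates leaned slightly to higher values in OC, with 218 rows higher and 168 lower and a median log2 change of 0.03. The median absolute change was 0.10, or 1.07-fold in CPM + 1. Estimates past 0.5 on the log2 scale either way were found in 16 rows and past 1 in 1 row, miR-375-3p, described below.

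The intervals limit the size of a difference on the log2(CPM + 1) scale for most rows, not for all. On that scale the 95% interval stayed within a log2 change of 1 either way for 346 rows (89.6%). It stayed within 1.5-fold of CPM + 1 for 216 rows (56%). For the remaining 40 rows the interval reached past a log2 change of 1. Precision followed abundance. The 51 miRNAs above 1000 CPM had intervals reaching a median of 0.29 to each side of the estimate, and all 51 intervals lay within 1. The 74 miRNAs between 3 and 10 CPM reached a median of 0.51 to each side, and 61 of those intervals lay within 1. The 47 miRNAs under 3 CPM reached a median of 0.50 to each side, and 40 of those intervals lay within 1. At such levels the added 1 CPM shrinks every change, so these intervals do not bound the plain ratio of CPM. Of the 4 rows with an unadjusted p under 0.05, 3 were among the 47 under 3 CPM and 1 was between 3 and 10 CPM.

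**Figure D1:**
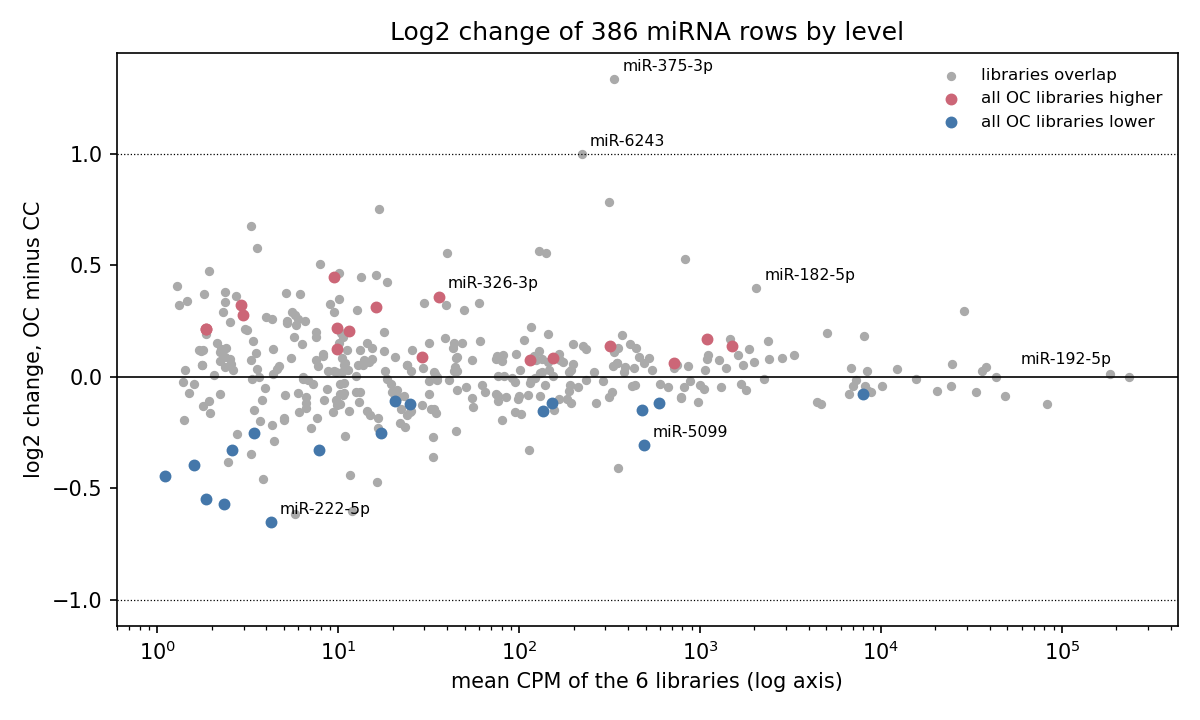
Log2 change of each of the 386 miRNA rows (OC minus CC, vertical axis) against its mean CPM over the 6 libraries (log axis), with rows coloured where all 3 OC libraries lie above or below all 3 CC libraries. The median absolute change falls from 0.16 under 3 CPM to 0.06 above 1000 CPM, 17 rows are separated in each direction, and miR-375-3p alone lies past the upper dotted line at 1.

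Depth differed between the groups and is given here because it bears on the low rows. CC libraries held 13.3, 7.47 and 9.05 M reads (mega-reads) and OC libraries 22.2, 17.2 and 16.9. The groups do not overlap (9.94 ± 3.02 against 18.8 ± 2.97 M reads, SD, n = 3 each, exact two-sided permutation p = 0.1, the smallest that 3 against 3 allows, and 0.9 adjusted over 9 library measures). With log2 depth as a covariate the model still passed 0 rows, but 35 rows had an unadjusted p under 0.05 and the median log2 change moved from 0.03 to -0.09. CO replicate 3, the shallowest library of the study at 5.45 M reads, enters the model only through the spread. Without it, 0 rows passed and 7 had an unadjusted p under 0.05. The scatter between single libraries overlapped within and across groups. Over 261 rows at 10 CPM or more, the SD of log2 differences was 0.471 to 0.485 for the 3 pairs within CC, 0.416 to 0.608 for the 3 within OC and 0.244 to 0.614 for the 9 pairs across groups. The most similar pair of all 15 was CC replicate 3 with OC replicate 3, a pair across groups.

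The most abundant hepatocyte miRNAs differed by less than their standard errors, with miR-148a-3p as an exception. miR-192-5p, the most abundant miRNA here and a product of hepatocytes and gut epithelium, stood at 235743 ± 4514 CPM in CC and 236046 ± 11720 in OC (SD, n = 3 each), a log2 change of 0.00 with a 95% interval from -0.17 to 0.17. miR-22-3p, the next most abundant, stood at 183121 ± 353 and 184861 ± 6330 CPM (0.01, SE 0.12). miR-122-5p, the hepatocyte miRNA known for its part in lipid metabolism, had 25255, 25112 and 23582 CPM in CC and 25383, 22105 and 24475 in OC. Its libraries overlapped, and its change was -0.04 with an interval from -0.29 to 0.21. miR-148a-3p, which targets the LDL receptor, had the lowest value of the list, -0.12 (SE 0.09), with 86300 ± 460 CPM in CC and 79535 ± 7455 in OC. Of the 14 hepatocyte-enriched miRNAs listed, all measured, 0 passed, 7 were higher and 7 lower, and their median of 0.00 stood beside 0.03 for all rows. Together they made up 60.2 ± 0.192% of summed CPM in CC and 59.6 ± 1.34% in OC (exact permutation p = 0.9, adjusted 1). With miR-192-5p left out, the OC share of the list was lower by a difference of -0.844 percentage points, and every OC library lay under every CC library (exact permutation p = 0.1, the smallest that 3 against 3 allows). With miR-192-5p kept but without OC replicate 1, the difference was 0.135 percentage points. The 10 most abundant miRNAs held 74.8 ± 0.548% and 74.7 ± 1.12%. These are bulk livers, so fewer cells of a type and less of a miRNA per cell cannot be told apart.

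Among miRNAs of lipid and sterol metabolism, 23 of 24 were measured, 0 passed, 12 were higher and 11 lower, with a median of 0.00. The highest members were those of the miR-183/96/182 cluster, which the sterol regulator SREBP-2 is known to activate. miR-182-5p had 1771, 1833 and 1638 CPM in CC and 2324, 1824 and 2872 in OC. OC replicate 2 fell inside the CC range and the other 2 OC libraries above it (0.40, SE 0.22, unadjusted p = 0.092, limma adjusted p = 0.9999). Without OC replicate 3, the highest, the change was 0.24. The estimate was 0.33 (SE 0.35) for miR-183-5p and 0.26 for miR-96-5p. miR-33-5p, encoded within Srebf2 and a repressor of cholesterol export, was 13.4 ± 1.06 CPM in CC and 14.3 ± 2.38 in OC (0.08, SE 0.23). miR-34a-5p, a repressor of Sirt1 that is raised in fatty liver, had the lowest estimate of the list, -0.27, with an interval from -1.22 to 0.68.

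For insulin signalling and glucose metabolism, 19 of 20 listed miRNAs were measured, 0 passed, 11 were higher and 8 lower, with a median of 0.03. miR-103-3p and miR-107-3p, whose sequences above differ by 1 base, are known to reduce insulin sensitivity and to target caveolin-1. miR-103-3p had 1434, 1405 and 1462 CPM in CC and 1617, 1522 and 1600 in OC. Every OC library was above every CC library, by a small step (0.14, SE 0.13, interval -0.14 to 0.42). miR-107-3p had 1062, 961 and 1079 CPM in CC and 1122, 1117 and 1249 in OC, again without overlap (0.17, SE 0.20). These 2 were named after their values were seen, and reads of 1 may count for the other. Summed by their seed they gave 2467 ± 91.2 CPM in CC and 2742 ± 105 in OC (0.15, SE 0.16, limma adjusted p over 37 families = 0.99). miR-802-5p, which is known to be raised in obesity, ranged from 237 to 447 CPM in CC and from 272 to 442 in OC (0.05, SE 0.48). miR-29a-3p, a miRNA tied to insulin signalling and to collagen genes, stood at 4852 ± 316 and 4466 ± 319 CPM (-0.12, SE 0.19).

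**Figure D2:**
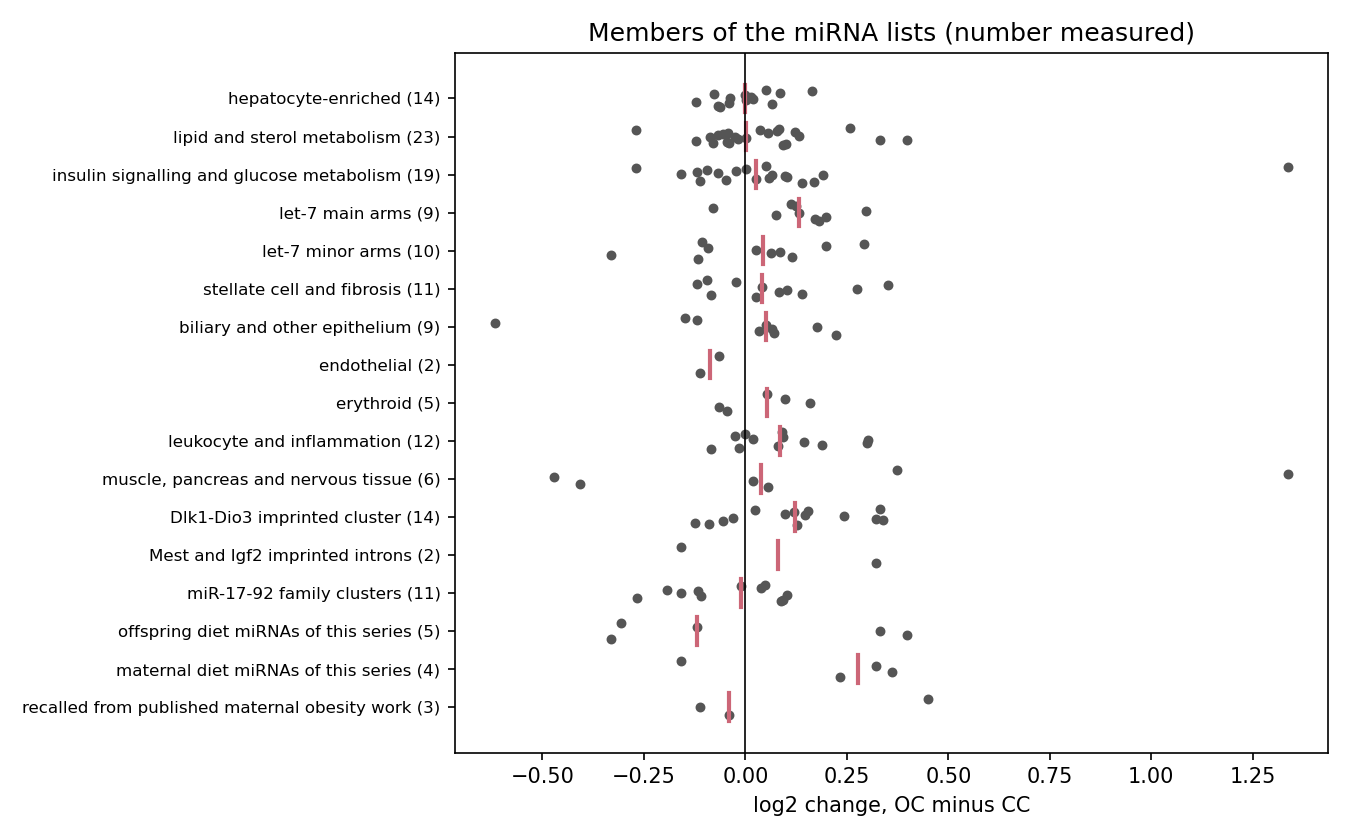
Log2 change (OC minus CC, horizontal axis) of every measured member of 17 miRNA lists, 1 point per miRNA, with each list's median as a red bar and the number measured in brackets. Most members lie within 0.4 of 0, and the point at 1.34 is miR-375-3p, which 2 lists hold.

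The let-7 family, whose main arms share a seed and repress growth and insulin-pathway genes, gave small differences, mostly upward in its main arms and mixed in its minor arms. Of the main arms, 9 of 10 were measured, 0 passed, and 8 were higher and 1 lower, with a median of 0.13. let-7f-5p was the highest, with 17633, 29729 and 31262 CPM in CC and 32550, 29508 and 31635 in OC. CC replicate 1 was low and the other 5 libraries were close together (0.30, SE 0.21, and 0.03 without CC replicate 1). Summed over the 9 members sharing the seed GAGGUAG, levels were 50155 ± 9259 CPM in CC and 57354 ± 7453 in OC (0.20, SE 0.17, limma adjusted p = 0.99). CC replicate 1 was lowest at 39785 CPM and OC replicate 1 highest at 65678, and the change was 0.04 without the former and 0.10 without the latter. The share of summed CPM in these arms differed by 0.714 percentage points, and by 0.199 without CC replicate 1 and 0.298 without OC replicate 1. Of the minor arms, 10 of 12 were measured, 0 passed, and 6 were higher and 4 lower. Of the 10, 3 did not overlap between groups, each with OC lower. Over all rows, 8.81% did not overlap in either direction and 4.4% did so with OC lower. let-7c-1-3p had 3.31, 2.68 and 2.98 CPM in CC and 2.48, 2.04 and 2.01 in OC (-0.33, SE 0.15, unadjusted p = 0.048, limma adjusted p = 0.9999). The 2 others, let-7a-1-3p counted together with let-7c-2-3p (159 ± 7.36 against 146 ± 2.88 CPM) and miR-98-3p (21.3 ± 1.09 against 19.7 ± 0.554 CPM), were -0.12 and -0.11.

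The rows with the smallest p were mostly rare miRNAs, and the 4 at the top were all lower in OC. miR-222-5p, the minor arm of miR-222, had 5.19, 6.96 and 4.20 CPM in CC and 3.79, 2.38 and 3.07 in OC. Each OC library was under each CC library (-0.65, SE 0.24, unadjusted p = 0.019, limma adjusted p = 0.9999), and 38 to 84 reads stood behind each value. The main arm miR-222-3p was 118 ± 8.31 CPM in CC and 125 ± 5.03 in OC (0.09, SE 0.16). miR-1933-3p had 2.10, 1.87 and 1.88 CPM in CC and 0.901, 1.34 and 1.54 in OC (-0.40, SE 0.16, unadjusted p = 0.030). miR-128-1-5p, a minor arm of the miR-128 precursor, had 2.71, 2.54 and 3.54 CPM in CC and 2.48, 1.86 and 0.828 in OC (-0.57, SE 0.25, unadjusted p = 0.040). Its groups were separated only by the step from CC replicate 2 to OC replicate 1, and OC replicate 3 was lowest at 14 reads. Without that library the change was -0.31 (unadjusted p = 0.20). miR-551b-3p (1.43 ± 0.227 against 0.785 ± 0.154 CPM) and miR-185-3p (2.40 ± 0.703 against 1.30 ± 0.191 CPM) did not overlap either, at -0.44 and -0.55. With log2 depth as a covariate, miR-222-5p was -0.32 (unadjusted p = 0.25).

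miR-5099 was the only abundant member of the 10 rows with the smallest p. It had 531, 492 and 606 CPM in CC and 478, 448 and 391 in OC, without overlap (-0.31, SE 0.15, unadjusted p = 0.060). miR-326-3p, whose host gene Arrb1 encodes beta-arrestin 1, had 31.7, 32.3 and 30.6 CPM in CC and 41.0, 36.3 and 45.5 in OC. The CC libraries were close together and all OC libraries lay above them (0.36, SE 0.17, interval -0.02 to 0.74, unadjusted p = 0.061). Summed with miR-330-5p by their seed, levels were 45.2 ± 1.52 CPM in CC and 56.2 ± 3.97 in OC (0.30, SE 0.16, limma adjusted p over 37 families = 0.99). With log2 depth as a covariate, miR-326-3p was 0.18 (unadjusted p = 0.39), and without OC replicate 3 it was 0.28. miR-1839-3p, a miRNA with no well-known role, had 14.4, 15.8 and 12.7 CPM in CC and 18.4, 18.5 and 16.96 in OC (0.32, SE 0.16). Its 5p partner did not overlap either, at 302 ± 12.3 and 332 ± 4.61 CPM (0.14, SE 0.15).

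**Figure D3:**
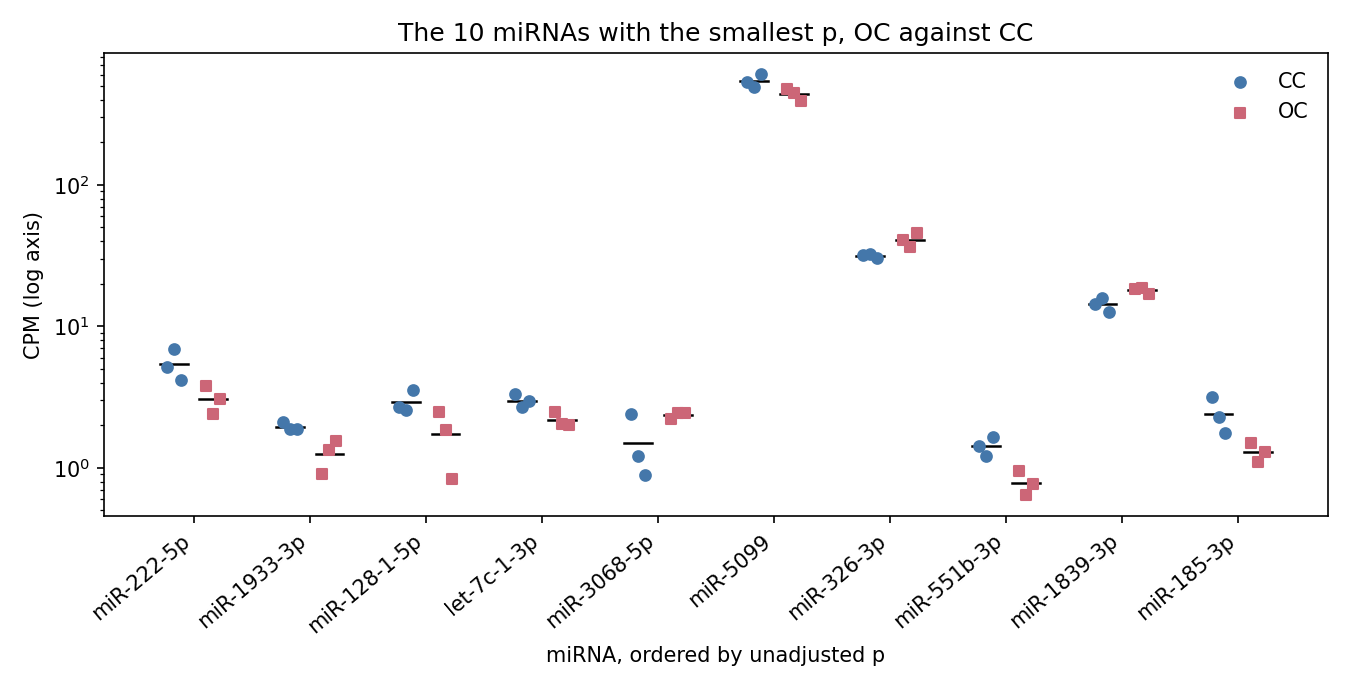
CPM (log axis) in each CC library (circles) and OC library (squares) of the 10 miRNAs with the smallest unadjusted p, with group means as bars. In 9 of the 10 the groups do not overlap, miR-3068-5p being the other, and 7 of the 10 lie under 7 CPM in every library.

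Fewer rows were separated in this comparison than in the 3 others looked at. OC and CC did not overlap in 34 rows (8.81%), 17 with OC higher and 17 with OC lower (4.4% each). With no difference, 3 libraries against 3 fail to overlap with a probability of 0.1 per row, so this share is near the one expected without any difference. The same count was 74 rows (19.2%) for OO against CO, 85 (22%) for CO against CC and 60 (15.5%) for OO against OC. The steps were small in abundant rows. miR-30e-5p, a hepatocyte-rich member of the miR-30 family, had 8140 ± 257 CPM in CC and 7718 ± 115 in OC (-0.08, SE 0.10), and its 3p arm 501 ± 20.2 and 451 ± 11.2 (-0.15, SE 0.12). miR-140-3p had 699 ± 5.77 and 730 ± 18.2 CPM (0.06, SE 0.13). miR-210-3p, the hypoxia-induced miRNA, had 28.3 ± 0.290 and 30.2 ± 0.867 CPM (0.09, SE 0.15). miR-30e, miR-140-3p and miR-210-3p were picked from the 34 after their values were seen. miR-467a-5p and miR-467b-5p, also among them, have identical values in every library and are 1 measurement.

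The ratio of the arms of a hairpin does not depend on the scaling of a library. Of 99 hairpins with both arms listed, 57 had both at a mean of 10 CPM or more. The 5p arm was the higher in all 6 libraries for 36 of them, the 3p arm for 19, and 2 were mixed. None of the 57 passed (limma, adjusted p under 0.05, 0%), 2 had an unadjusted p under 0.05 (3.51%) and 7 did not overlap. With no difference, 3 against 3 fail to overlap with a probability of 0.1 per hairpin. For miR-335 the 5p to 3p ratio was 3.42, 2.40 and 2.87 in CC and 2.004, 2.01 and 2.11 in OC. All OC ratios lay below all CC ratios and close to each other (log2 change -0.49, SE 0.15, unadjusted p = 0.005, limma adjusted p over 57 hairpins = 0.28). Leaving out any 1 of the 6 libraries kept the estimate between -0.62 and -0.36. Both arms contributed, in opposite directions. miR-335-5p had 106, 103 and 92.1 CPM in CC and 100, 83.7 and 85.2 in OC (-0.16, SE 0.17), and miR-335-3p had 31.0, 42.7 and 32.1 in CC and 50.1, 41.6 and 40.4 in OC (0.32, SE 0.19). In the obesogenic-fed sons the ratio was 2.08, 2.52 and 2.38 after control mothers and 2.32, 1.90 and 1.89 after obesogenic mothers. For miR-425 the ratio was 29.4, 41.8 and 24.8 in CC and 19.6, 24.6 and 22.6 in OC (-0.49, SE 0.18, adjusted p = 0.50). Its 5p arm was level (0.02, SE 0.16), and the 3p arm was 8.47 ± 2.52 CPM in CC and 11.8 ± 1.72 in OC. Without CC replicate 2 the miR-425 ratio change was -0.28.

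**Figure D4:**
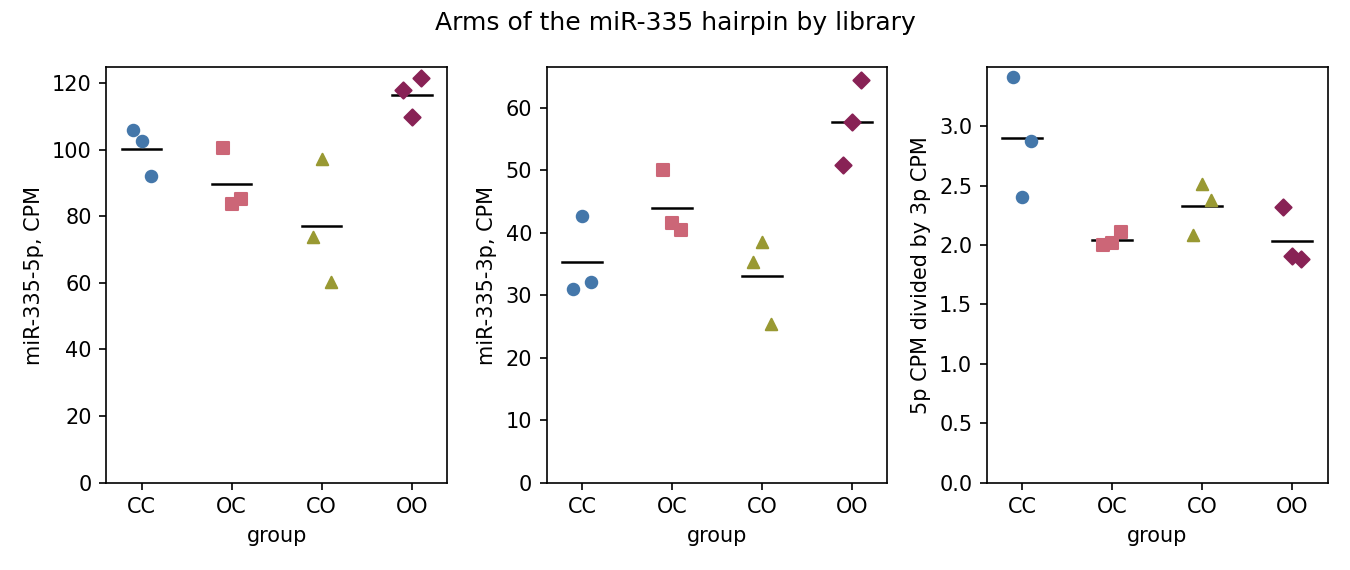
Levels of miR-335-5p (left) and miR-335-3p (middle) in CPM and the ratio of the 5p to the 3p arm (right) in each library of the 4 groups, with group means as bars. The 3 OC ratios sit at 2.004 to 2.11 and the 3 CC ratios at 2.40 to 3.42, while the OO libraries have the highest level of both arms.

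The difference by maternal diet could be set beside that in sons fed the obesogenic diet, OO against CO, which shares no library with OC against CC. A stem of the sample title is common to OC replicate 2 and OO replicate 3, and the labels do not explain it, so the 2 comparisons may share a mother or litter. By limma, 0 of 386 rows passed in OO against CO, with 47 (12.2%) at an unadjusted p under 0.05. The estimates had the same sign in both comparisons for 206 of 386 rows, and Pearson's r across the 386 miRNAs, which are not independent, was -0.07. Of the rows that did not overlap, 10 were common to both comparisons, 10 of the 34 here and 10 of the 74 there. Over all 386 rows the shares without overlap were 8.81% here and 19.2% there. Of the 10 common rows, only 4 lay in the same direction in both. The interaction, the difference between the 2 changes, passed in 0 rows, with 15 (3.89%) at an unadjusted p under 0.05. miR-335-5p had the smallest p, with -0.16 in control-fed and 0.62 in obesogenic-fed sons (difference 0.78, SE 0.23, limma adjusted p = 0.77). miR-330-3p was -0.38 and 0.47 (difference 0.85, SE 0.29) and let-7c-1-3p -0.33 and 0.27 (difference 0.60, SE 0.21). miR-326-3p had estimates above 0 in both settings, 0.36 and 0.84 (SE 0.17 each), with a difference of 0.48 (SE 0.25, adjusted p = 0.77). Along with miR-335-3p (0.32 and 0.80) and miR-3084-3p (0.23 and 0.86), it belongs to a list of 4 drawn from earlier results on these same libraries, so the list is no independent evidence of its direction.

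The lists for other cell types also had medians near 0, though single members differed more. The 13 names listed for stellate cells and fibrosis gave 11 measured rows, 7 higher and 4 lower, with a median of 0.04. They made up 4.31 ± 0.950% of summed CPM in CC and 4.27 ± 0.223% in OC. Most of this was miR-143-3p, with 36142 of the 43506 CPM of the list in CC. miR-214-5p, of the fibroblast miR-199a/214 transcript, was 8.86 ± 2.44 and 11.4 ± 1.53 CPM (0.35, SE 0.19). For leukocytes and inflammation, 14 listed names gave 12 measured rows, 9 higher and 3 lower (median 0.08). Their share was 0.381 ± 0.0379% in CC and 0.413 ± 0.0930% in OC. OC replicate 1 was the highest library for miR-155-5p, a miRNA induced in activated leukocytes, at 23.2 CPM, against 8.19 to 12.7 CPM in CC and 10.3 and 9.99 in the other OC libraries. The myeloid miR-223-3p was 116 ± 7.76 and 114 ± 6.09 CPM (-0.03, SE 0.23). The endothelial miR-126-3p stood at 4606 ± 266 and 4268 ± 336 CPM (-0.11, SE 0.11). The 4 names listed for endothelium gave 2 measured rows, the arms of miR-126, both lower. The 10 names listed for erythroid cells gave 5 measured rows, 3 higher and 2 lower, with a share of 0.366 ± 0.0724% and 0.403 ± 0.113%. In the biliary and other epithelium list 9 of 10 were measured, 6 higher and 3 lower, with a share of 0.280 ± 0.0167% and 0.286 ± 0.0378%. Over 1/2 of this was miR-203-3p, with 1685 of the 2829 CPM of the list in CC. The only row of this list without overlap was miR-31-5p, with 611, 615 and 632 CPM in CC and 592, 524 and 597 in OC (-0.12, SE 0.10). By limma, 0 members of these lists passed, and the exact permutation p of each share was 0.7 or more.

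No member of the imprinted and growth clusters passed either. Of 46 listed miRNAs of the Dlk1-Dio3 imprinted cluster, expressed from the maternal chromosome, 14 were measured, 0 passed, 10 were higher and 4 lower, with a median of 0.12. They held 0.0444 ± 0.00971% and 0.0477 ± 0.00462% of summed CPM (exact permutation p = 0.7). miR-541-5p, of that cluster, had 26.2, 21.7 and 31.2 CPM in CC and 33.4, 40.5 and 26.8 in OC, overlapping (0.33, SE 0.26). Of 14 miRNAs of the miR-17-92 family clusters, which promote proliferation, 11 were measured, 5 higher and 6 lower, with a median of -0.01. A list of 8 recalled from published work on maternal obesity, which may have been picked from these samples, had 3 measured. Among these, miR-582-3p, from an intron of Pde4d, had 7.29, 6.83 and 9.51 CPM in CC and 11.5, 11.9 and 9.75 in OC. Its groups were separated by a narrow step from CC replicate 3 to OC replicate 3, and its SE was the wider for the spread in the other groups (0.45, SE 0.60). A further list of 5 was drawn from earlier results on the sons' own diet in these libraries, and 2 of its miRNAs were higher and 3 lower here, with a median of -0.12.

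Some of the widest differences, such as that of miR-375-3p, came from single libraries. miR-375-3p, known from pancreatic islets and gut endocrine cells, had 17.7, 197 and 18.0 CPM in CC and 1734, 21.9 and 27.5 in OC. Its change of 1.34 had an SE of 1.63 and an interval from -2.24 to 4.92, and was -0.69 without OC replicate 1. miR-215-5p, the relative of miR-192-5p best known from intestine and kidney, had 100, 51.4 and 85.3 CPM in CC and 422, 64.1 and 52.8 in OC. It was 0.56 with all libraries and -0.38 without OC replicate 1. The same library had the highest miR-200c-3p, an epithelial miRNA, at 26.1 CPM with the next library at 12.4. Muscle miRNAs were low in 1 library of each group. miR-133a-3p had 743, 70.8 and 419 CPM in CC and 393, 54.3 and 440 in OC, and miR-1a-3p 32.2, 2.68 and 24.8 in CC and 19.0, 2.09 and 18.0 in OC. In both, CC replicate 2 and OC replicate 2 stood apart from the rest. Of 13 miRNAs listed for muscle, pancreas and nervous tissue, 6 were measured, 4 higher and 2 lower, with a median of 0.04. Late-numbered rows miR-6240 (26.2, 57.2 and 324 CPM in CC, 80.0, 68.7 and 288 in OC) and miR-6243 (59.5, 114 and 349 in CC, 265, 237 and 305 in OC) were lowest in CC replicate 1. So were miR-5109, miR-6236 and miR-6538, at 78.4, 16.0 and 5.34 CPM, with the next library at 167, 33.2 and 11.1. Such rows therefore moved together by library. For miR-6243, CC replicates 1 and 2 lay under all OC libraries and CC replicate 3 above them. Its estimate was just under 1 (0.998, SE 0.51, unadjusted p = 0.077), and without CC replicate 3 it had the smallest adjusted p of any row, 0.203. The part of other tissue in these values was not tested.

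**Figure D5:**
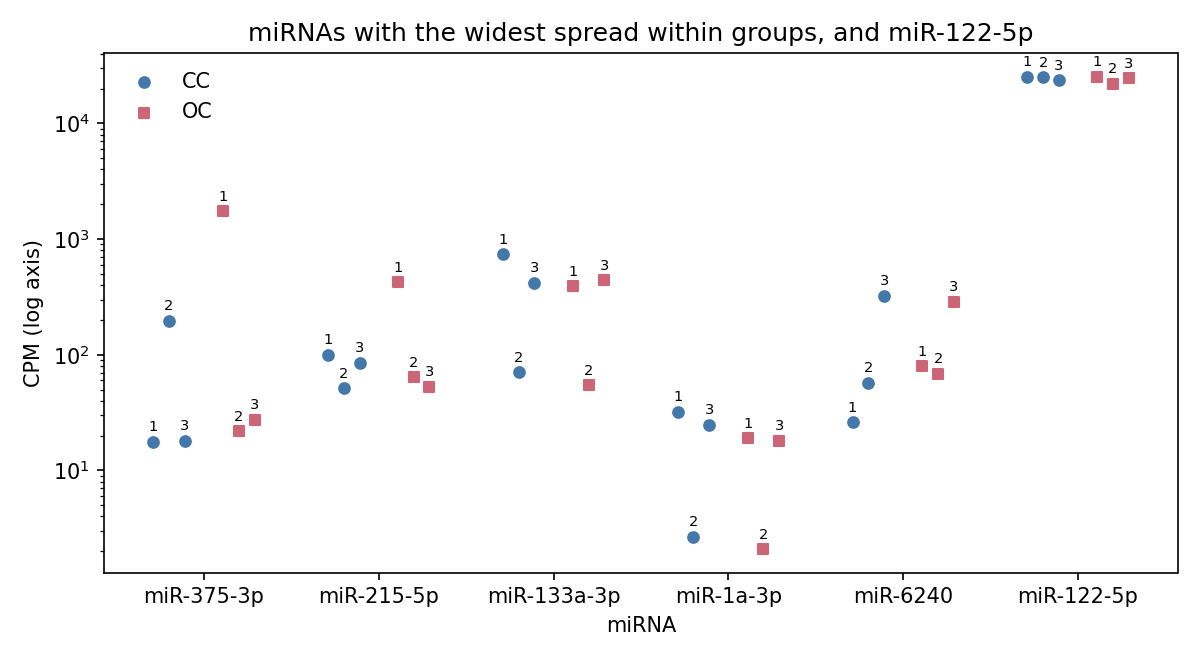
CPM (log axis) in each CC library (circles) and OC library (squares), labelled by replicate number, for the 5 miRNAs with the widest spread within groups and for miR-122-5p. OC replicate 1 is high for miR-375-3p and miR-215-5p, CC replicate 2 and OC replicate 2 are low for miR-133a-3p and miR-1a-3p, and all 6 libraries lie between 22105 and 25383 CPM for miR-122-5p.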

How the data were processed

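Liver RNA (miRNeasy) was made into TruSeq small RNA libraries, per the labels' protocols. The submitters' processing notes name Bowtie 1.2.3. For the build, the miRNA reference and the handling of multiply matching reads, the method is not stated in the labels. Values were deposited by the authors as CPM for 386 mature miRNA rows in 12 libraries. In each column 100% of values were whole multiples of 1 step (tolerance 0.001 reads), which gave the depths. Columns summed to 0.866% to 1.17% above the CPM total, 4 rows name several miRNAs, and 125 rows had a mean under 10 CPM. Exact repeats of another row's values were found in 6 rows. Other rows were nearly equal, such as miR-101a-3p and miR-101c (9527.69 and 9527.31 CPM in CC replicate 1).

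The main test was limma 3.58.1 (trend, two-sided, R 4.3.3) on log2(CPM + 1) at the deposited scaling, 1 mean per group over 12 libraries, Benjamini-Hochberg adjusted. The scripts were tested on simulated data. Families of 2 or more rows sharing a seed were summed, and arm ratios needed 10 CPM in both arms. The 2 planned count models were not run because the deposited unit is CPM. Alternatives were pseudocounts of 0.25 and 5, a 10 CPM filter, other scalings, limma-voom, depth as a covariate, quality weights, the 6 libraries alone and leaving out each library. Replicate numbers follow accession order and pair nothing. miRNAs were named by p, abundance, gap, spread and list membership (the 10 smallest p, the 10 most abundant, the 5 widest gaps, the 5 widest spreads, the 3 smallest p of each further test, and 2 abundant members and the smallest p of each of 17 lists), and others illustrate a list or were picked after their values were seen. The members and lists were chosen with earlier results of these data known. Other steps ran in Python 3.11.15 with numpy 2.4.6, pandas 2.3.3 and matplotlib 3.10.9.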

Additional observations from a re-analysis of the deposited data

How the results depend on the processing

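The count of passing miRNAs in OC against CC, 0, held under every alternative run, as did 0 seed families and 0 arm ratios. The rows at an unadjusted p under 0.05 were 4 in the main limma model, 9 with TMM factors, 8 with median-of-ratios factors, 6 with limma-voom, 12 with the 6 libraries alone, 16 with quality weights, 35 with log2 depth as a covariate and 0 with the 10 CPM filter. Without CC replicate 3 there were 12, with a lowest limma adjusted p of 0.203. For the interaction, log2 depth as a covariate gave 1 passing row in place of 0 (miR-126-5p, limma adjusted p = 0.041), and the cause was not tested. Of the 56 miRNAs named by rule, which leave out miR-6243 and others picked after their values were seen, 29 kept 1 direction under every alternative, 55 of 1164 values had the opposite sign and 0 passed, with a lowest adjusted p of 0.376.

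The opposite direction was reached with log2 depth as a covariate by miR-122-5p (0.10), miR-127-3p (-0.24), miR-142-5p (-0.13), miR-183-5p (-0.20), miR-195a-5p (-0.06), miR-203-3p (-0.043), miR-215-5p (-0.64), miR-22-3p (-0.12), miR-296-5p (-0.046), miR-3084-3p (-0.043), miR-411-5p (-0.24), miR-451a (-0.28), miR-92a-3p (0.04) and miR-425-5p (-0.039). With quality weights it was reached by miR-133a-3p (0.0014), miR-142-5p (-0.035), miR-30a-5p (0.0051) and miR-92a-3p (0.0017), and for miR-192-5p with TMM (-0.00334) and median-of-ratios factors (-0.0089). The cause was not tested.

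Leaving out 1 library at a time, the OC minus CC difference in percentage points of summed CPM crossed 0 for these list shares, none of which had passed: the 10 most abundant miRNAs (-0.608 to 0.485), hepatocyte-enriched (-1.06 to 0.135), erythroid (-0.021 to 0.0921), leukocyte and inflammation (-0.0217 to 0.0629), stellate cell and fibrosis (-0.341 to 0.509), biliary and other epithelium (-0.0124 to 0.0253) and Dlk1-Dio3 imprinted cluster (-0.000787 to 0.00868). The log2 changes crossed 0, from the lowest to the highest value, for let-7a-5p (-0.029 to 0.33), let-7d-3p (-0.018 to 0.15), miR-122-5p (-0.083 to 0.017), miR-133a-3p (-1.40 to 0.56), miR-142-5p (-0.10 to 0.22), miR-143-3p (-0.089 to 0.22), miR-150-5p (-0.28 to 0.58), miR-192-5p (-0.025 to 0.042), miR-1a-3p (-1.47 to 0.41), miR-203-3p (-0.013 to 0.12), miR-215-5p (-0.38 to 1.11), miR-21a-5p (-0.25 to 0.016), miR-22-3p (-0.015 to 0.030), miR-26a-5p (-0.16 to 0.0069), miR-30a-5p (-0.011 to 0.019), miR-3107-5p with miR-486-5p (-0.048 to 0.40), miR-375-3p (-0.69 to 2.47), miR-411-5p (-0.052 to 0.26), miR-451a (-0.074 to 0.27), miR-6240 (-0.22 to 1.57), miR-9-5p (-0.013 to 0.65), miR-92a-3p (-0.059 to 0.046) and miR-425-5p (-0.011 to 0.069). Without crossing 0, the estimate moved by over 1.5 times for miR-183-5p (0.17 to 0.49), miR-214-5p (0.20 to 0.54), miR-148a-3p (-0.19 to -0.053), miR-126-3p (-0.16 to -0.051), miR-31-5p (-0.15 to -0.059), miR-29a-3p (-0.17 to -0.071), miR-3084-3p (0.15 to 0.33), miR-335-5p (-0.24 to -0.11) and miR-425-3p (0.27 to 0.66), among others. The 3 libraries a group and the low reads of the rarest rows limit these values, and a missed threshold does not show that levels were equal.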
